A study of Mus musculus with 4 samples.

Results

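The genes described here are 10 receptors for cytokines and growth factors: Il7r, Csf1r, Csf2ra, Csf2rb, Csf3r, Lifr, Il4ra, Il10ra, Ifngr1 and Tnfrsf1b. They were taken by gene name from the non-control probes of the array, which named 24719 genes. Where a gene had several probes, the brightest one on average stands for it. Expression was measured in RAW264 cells, a mouse macrophage line of BALB/c origin, on 4 one-colour microarrays, 1 for each combination of siRNA and iron. The design sets iron against no iron under each siRNA, and the knockdown of Tfe3 and Tfeb against its control at each iron state. Tfe3 and Tfeb are transcription factors of lysosomal genes. The siGFP group received an siRNA against GFP, which serves as the non-targeting control, and no iron. The siGFP group with iron received the same siRNA and 500 µM of FeCl3 for 24 hours, starting 48 hours after transfection. The siTfe3/Tfeb group received siRNA against both factors and no iron, and the siTfe3/Tfeb group with iron received both the knockdown and the iron salt. All groups are thus transfected cells of 1 established line.

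Cytokine receptors are mostly assembled from a chain that recognises the ligand and a shared chain that helps to pass on the signal. Ligand binding activates JAK kinases attached to the chains, the kinases phosphorylate STAT factors, and the STAT factors enter the nucleus. Csf1r differs in that it is itself a tyrosine kinase, and Tnfrsf1b, the second TNF receptor, signals through TRAF adaptors. In macrophages these receptors set survival, growth and the balance between inflammatory and resolving states.

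With 1 array in each group there are no replicates, so no comparison below has a test or a p-value, and a difference between groups is a difference between these cultures. Where 4 values follow each other, they stand for the untreated control, the control with iron, the knockdown and the knockdown with iron, in that order. In bulk RNA, fewer cells that express a gene and less of its RNA per cell cannot be told apart. Values are the scanner's processed signal, and a log2 level is that signal relative to the 75th percentile of its array, which lay between 592.7 and 636.3. A gene was taken as measured where the scanner flagged its probe as well above background, which held for 13816 genes on all 4 arrays, and no spot was saturated. A difference of at least 2-fold was called. Probes spotted repeatedly within an array gave a measure of spot error: the SD of a log2 difference was 0.065 for signals above 2 in log2 level, 0.12 between -2 and 0, and 0.27 between -4 and -2. The scanner's own error model gave about 0.20 for bright probes. Neither includes the variation between cultures. All 10 macrophage markers, Lyz2, Cd68 and Adgre1 among them, were measured on all 4 arrays. That list also holds Csf1r, 1 of the receptors described here. The epithelial markers Epcam, Krt8 and Cdh1 were not well above background on any. Of the T cell markers, Cd3e, Cd3d, Cd4 and Lck were measured on all 4 arrays, Cd8a on 1 and Cd3g on none. Cd4 read 1283, 1088, 1001 and 1052, beside 1009, 847, 809 and 733 for Spi1 of the macrophage list. The summed scaled signal of the macrophage list was 953 to 1115, and that of the T cell list, 4 of 6 measured on all arrays, was 4.75 to 5.37. Tfe3 had processed signals of 12421 and 11306 in the siGFP cultures without and with iron, and 7736 and 7315 in the knockdown cultures. After scaling, 60.6% of the control level was left without iron and 68.4% with iron. Tfeb stood at 91.0% and 112% of its control, so its probe showed no reduction beyond the scanner error, and the knockdown groups are known by their labels.

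Il7r, the alpha chain that pairs with the common gamma chain to bind IL-7, was the receptor with the largest iron difference of the 10. Its processed signal was 74 in siGFP cells, 575 in siGFP cells with iron, 54 in siTfe3/Tfeb cells and 319 in siTfe3/Tfeb cells with iron. Both cultures with iron lay far above both without. The iron difference was 2.94 in log2, or 7.69-fold, in siGFP cells, with a spot SD of 0.21. This was the 4th highest among 14228 genes measured on both arrays. In siTfe3/Tfeb cells it was 2.66, or 6.33-fold, the 11th highest of 14077. The knockdown difference of Il7r was -0.49 without iron and -0.77 with iron, which is 71.2% and 58.7% of the respective siGFP level. Under normexp background correction, which compresses dim signals, the iron differences of Il7r were 2.18 and 1.84.

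The array carried a second Il7r probe, and its sequence is shown with that of the first because only the first gave a signal. The first probe lies on the minus strand at chr15:9436822-9436881 of mm9, the build of the array design, and was designed to a RefSeq mRNA. The second, at chr15:9442570-9442629, is listed only with a cDNA clone and read a processed signal of 4 on each of the 4 arrays, not well above background. The exon or UTR in which each lies was not analysed here. The first 30 bases of each 60-base probe, 5′ to 3′, were:
Il7r probe 1: tgaaggacaaagtacatttatgggtgtggc
Il7r probe 2: tcaatcacgttcacaaaataagtatcatct

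Lifr, the receptor chain for LIF that pairs with gp130, had the opposite pattern at low signal. Its brightest probe read 48 in siGFP cells, 18 in siGFP cells with iron, 113 in siTfe3/Tfeb cells and 30 in siTfe3/Tfeb cells with iron. The value of 18 was not well above background, so comparisons with that culture are bounds, computed against the lowest level flagged as well above background on the array. Each culture with iron lay below its partner without iron, and each knockdown culture above its control. With iron, Lifr was at least 2.18-fold lower in siGFP cells, against a measured log2 difference of -1.46. In siTfe3/Tfeb cells it was 3.49-fold lower, a log2 difference of -1.80 with a spot SD of 0.40, which is the 2nd lowest of 14077 genes. Knockdown without iron gave 2.29-fold more Lifr signal, a log2 difference of 1.19 with a spot SD of 0.27 and the 98th highest of 14268. With iron, the knockdown culture was at least 1.43-fold higher. None of the Lifr differences reached 2-fold under normexp correction, where the values were -0.43 and -0.77 for iron and 0.59 and 0.26 for knockdown.

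Lifr had 3 probes, shown here because the Lifr values are low and each probe reads another stretch of the gene. Probe 1 lies at chr15:7141681-7141740 of mm9, probe 2 at chr15:7147319-7147378 and probe 3, listed with another RefSeq mRNA of the gene, at chr15:7135072-7135131, all on the plus strand. Probe 2 read 30, 7, 111 and 19 and was well above background only in the cultures without iron. Its knockdown difference without iron was 1.86. Probe 3 read 12, 9, 36 and 4 and was well above background only in siTfe3/Tfeb cells without iron. On every one of the 3 probes the siTfe3/Tfeb culture without iron was the brightest. The first 30 bases of each, 5′ to 3′, were:
Lifr probe 1: ttcatgtagcagcagctatctggcgttctg
Lifr probe 2: catagatgatgtaaatagcctaagacactg
Lifr probe 3: taaaaacttggaaatgtatccaggcctaac

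**Figure D1:**
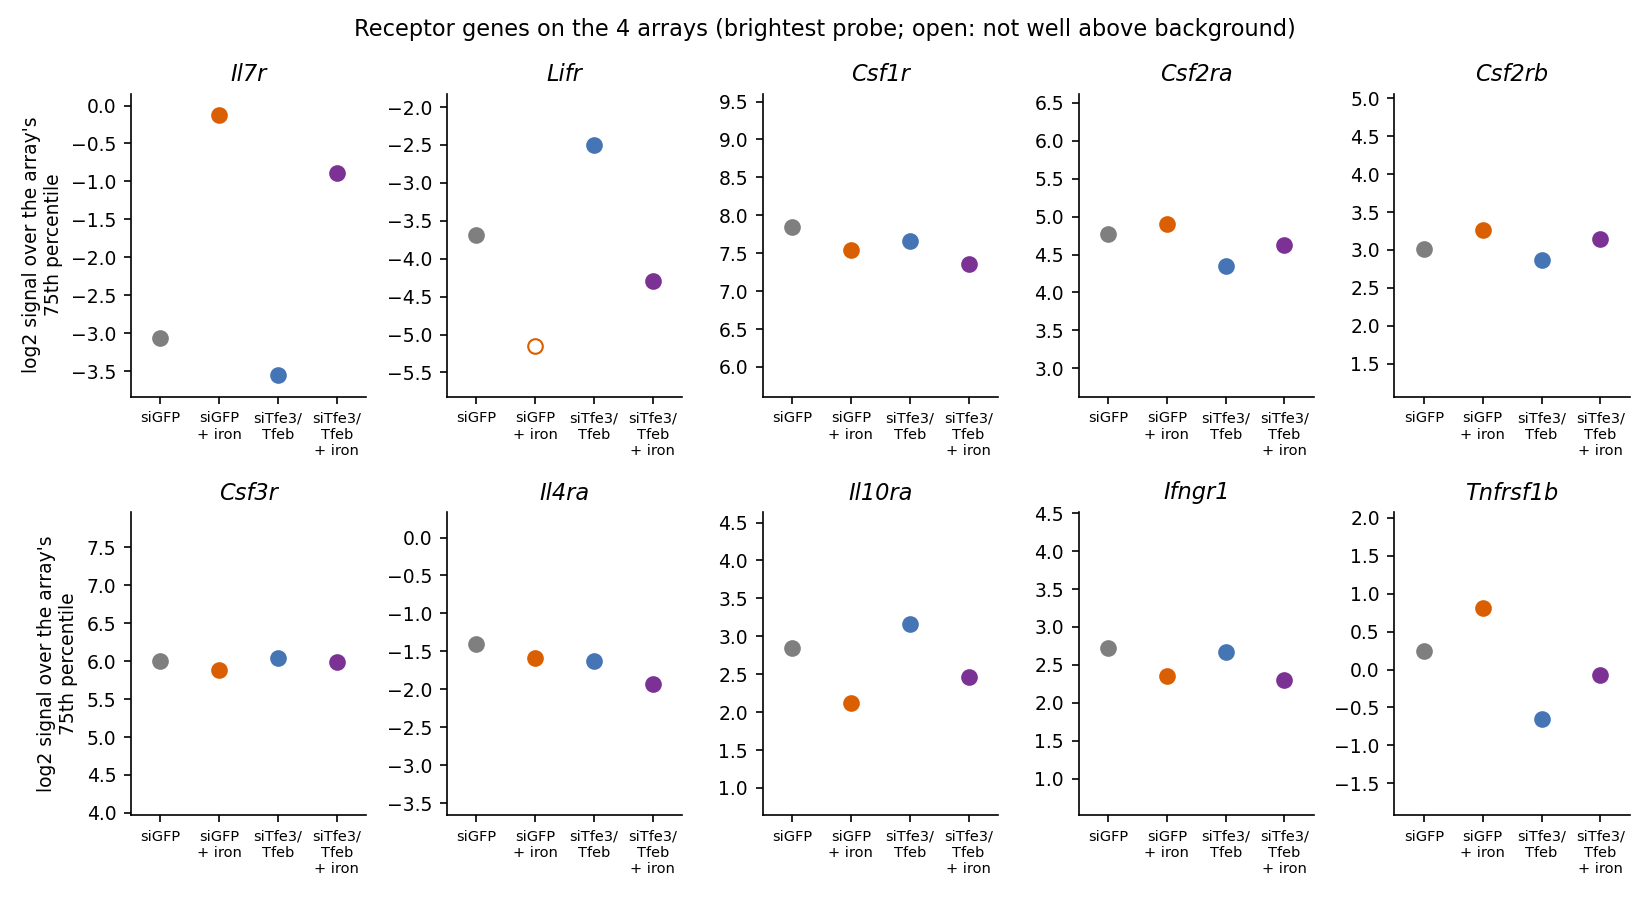
Log2 level (processed signal relative to the array's 75th percentile) of the 10 receptors in the 4 cultures, 1 array each. Each panel has its own axis with the same span, so steps can be compared between panels but heights cannot. Open points were not well above background, and no error bars are drawn. Il7r steps up with iron in both siRNA groups, and Lifr steps down.

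The receptors of the colony-stimulating factors, which drive the growth and survival of myeloid cells, all differed by less than 2-fold. Csf1r, the M-CSF receptor that defines the macrophage lineage, read 142885, 116642, 128959 and 97462. The siGFP culture was the highest and the knockdown culture with iron the lowest. Its iron differences were -0.31 and -0.30, which left 80.7% and 81.1% of the level without iron, and its knockdown differences were -0.19 and -0.18. The iron differences were 1.52 and 1.48 times the scanner error SD. A second Csf1r probe, 4836 in siGFP cells and 3090 with iron, gave iron differences of -0.66 and -0.52. Both Csf1r probes were therefore lower with iron, by unequal amounts.

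Csf2ra, the ligand-binding chain for GM-CSF, read 16961, 18691, 12967 and 14681. Both knockdown cultures lay below both siGFP cultures. The knockdown differences were -0.43 without iron and -0.27 with iron, and the iron differences were 0.12 and 0.28. Csf2rb, the common beta chain of the GM-CSF, IL-3 and IL-5 receptors, read 4974, 6021, 4624 and 5236. Its iron differences were 0.26 and 0.28, and its knockdown differences -0.14 and -0.12. The mouse genome holds a near-identical copy, Csf2rb2, so a Csf2rb signal may include RNA of the other gene and is uncertain to that extent. Of the 4 Csf2rb probes, 3 were measured on all arrays, with iron differences from 0.16 to 0.38, and the fourth was on none.

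Csf3r, the G-CSF receptor best known from neutrophils, had the narrowest range of the 10. It read 39681, 37172, 42020 and 37527, a range of 0.16 in log2 over the 4 cultures. Its iron differences of -0.11 and -0.06 and its knockdown differences of 0.04 and 0.09 were all below the scanner error SD of 0.20.

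Il10ra, the ligand-binding chain for the anti-inflammatory cytokine IL-10, read 4444 in siGFP cells, 2725 in siGFP cells with iron, 5682 in siTfe3/Tfeb cells and 3273 in siTfe3/Tfeb cells with iron. Both cultures with iron lay below both without. Its iron differences were -0.72 and -0.69, which left 60.6% and 61.8% of the signal, and were 3.54 and 3.40 times the scanner error SD. In siGFP cells this was the 133rd lowest of 14228 genes, and in siTfe3/Tfeb cells the 301st lowest of 14077. The knockdown differences ran the other way, 0.32 without iron and 0.35 with iron. The second probe gave iron differences of -0.95 and -0.74 and knockdown differences of 0.30 and 0.51. The 2 probes lie close to each other on the minus strand, at chr9:45061922-45061981 and chr9:45062649-45062708 of mm9, and their first 30 bases show which stretches gave matching differences:
Il10ra probe 1: tcaaatggaaccacaagtgttgtgtgtttt
Il10ra probe 2: aaataatgactaggtcattcagaagtccct

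Ifngr1, the ligand-binding chain for interferon gamma, also had lower signal with iron. It read 4101, 3202, 4037 and 2928, and both cultures with iron were below both without. The iron differences were -0.37 and -0.36, or 77.2% and 77.9% of the level without iron, which is under 2 scanner error SD. The knockdown differences were -0.06 and -0.05. The second of these changed sign, to 0.05, when arrays were centred on their medians.

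Il4ra, the chain shared by the IL-4 and IL-13 receptors that starts the alternative state of macrophages, read 235, 209, 206 and 156. The siTfe3/Tfeb culture with iron was the lowest. Its iron differences were -0.19 and -0.30 and its knockdown differences -0.23 and -0.34. The second Il4ra probe gave -0.24 and -0.07 for iron and -0.08 and 0.09 for knockdown, so the probes differed in the sign of the knockdown difference with iron.

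Tnfrsf1b, which binds TNF and lymphotoxin alpha, was the receptor whose knockdown differences were nearest to 2-fold among those measured on all 4 arrays. It read 731 in siGFP cells, 1096 in siGFP cells with iron, 405 in siTfe3/Tfeb cells and 565 in siTfe3/Tfeb cells with iron. Both knockdown cultures lay below both siGFP cultures. The knockdown differences were -0.89 and -0.87, which left 54.0% and 54.5% of the control signal, and were 4.34 and 4.28 times the scanner error SD. The iron differences were 0.57 and 0.58, or 148% and 149.7% of the level without iron. The culture with both iron and knockdown thus stood between the untreated and the knockdown culture.

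The second Tnfrsf1b probe did not share this pattern, and both are shown because the result rests on the first. Probe 1 was designed to the RefSeq mRNA and lies at chr4:144804304-144804363 of mm9. Probe 2, listed only with a cDNA clone, lies at chr4:144833903-144833961, both on the minus strand. Probe 2 read 201, 213, 209 and 208 and was well above background on every array. Its 4 differences lay between 0.02 and 0.09. Averaged over both probes, the knockdown differences of Tnfrsf1b were -0.44 and -0.42 and the iron differences 0.32 and 0.34. The first 30 bases, 5′ to 3′, were:
Tnfrsf1b probe 1: gcaattgcactgtgtgctggacagaattcc
Tnfrsf1b probe 2: ttttaatgatgatggtgtctcctgtagccc

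**Figure D2:**
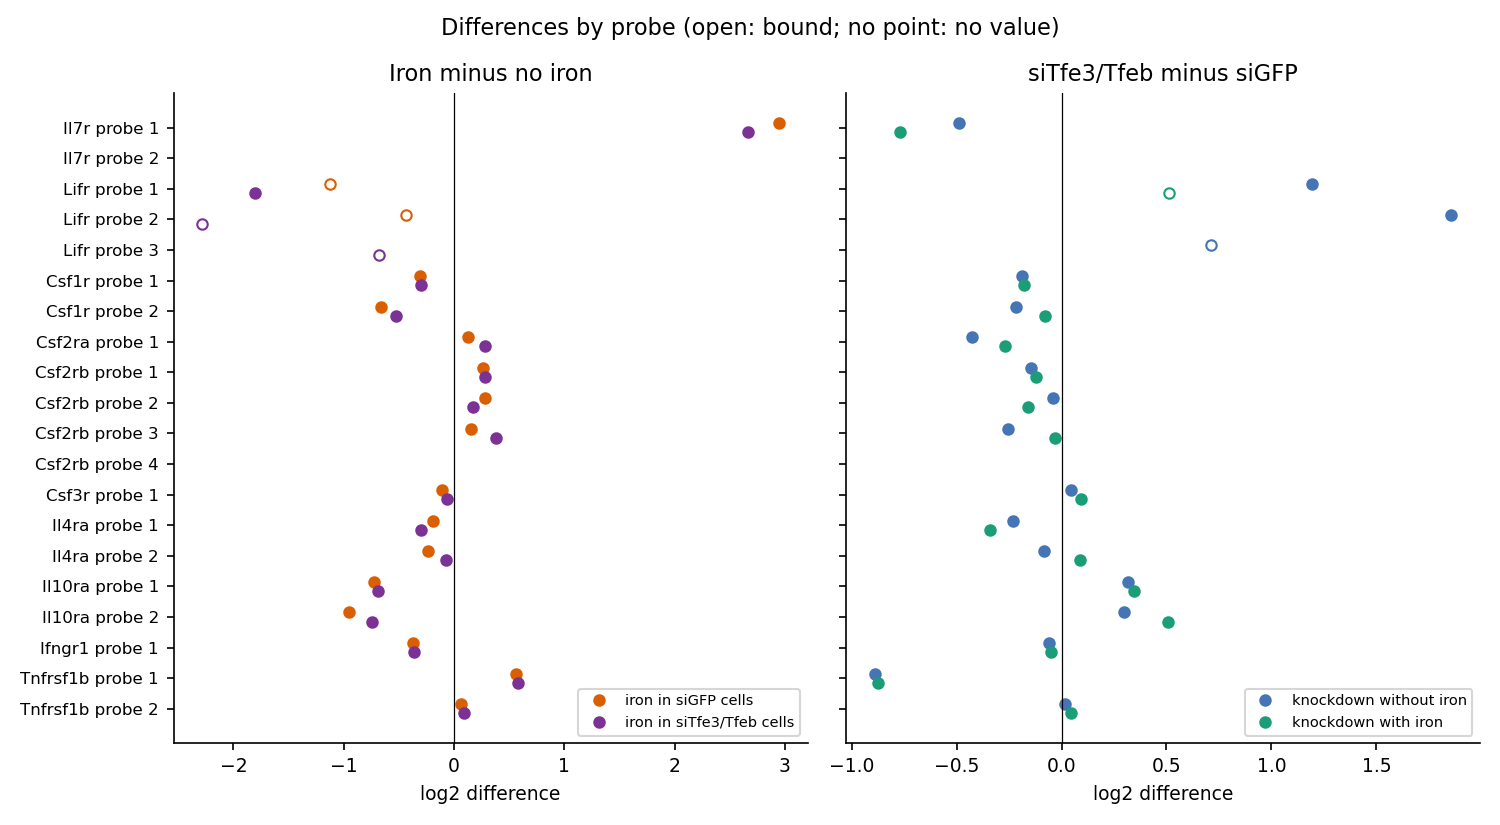
Log2 differences of each of the 20 probes of the 10 receptors in the 4 comparisons; filled points are measured, open points are bounds, and a row with no point has no value. The first probe of Tnfrsf1b stands apart from its second, the second probe of Il7r has no value, and both probes of Il10ra lie on the same side of 0 in each comparison.

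Of the 10 receptors, 1 was at least 2-fold higher with iron in siGFP cells, Il7r, where 1.53% of 15067 genes were. Another, Lifr, was at least 2-fold lower, where 0.352% of genes were, and 1.88% of genes differed either way. In siTfe3/Tfeb cells the same receptors passed, 1 higher and 1 lower, against 1.78% and 0.700% of 14990 genes, or 2.48% either way. Across the receptors 4 differences were above 0 and 6 below in each siRNA group, with medians over measured receptors of -0.11 and -0.18 against -0.020 and -0.0065 over all genes. Knockdown without iron gave 1 receptor at least 2-fold higher, Lifr, where 1.46% of 15209 genes were, and 0 at least 2-fold lower, where 2.10% were and 3.56% differed either way. Knockdown with iron gave 0 in either direction, against 0.980% higher and 1.76% lower of 14895 genes, or 2.74% either way. For that comparison the genes called were 146 higher and 262 lower, and with arrays centred on their medians 197 higher and 207 lower. The medians over measured receptors were -0.17 and -0.18 against -0.029 and -0.020 over all genes. Most of these receptors stayed inside the 2-fold limit in every comparison, as did most of all genes.

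**Figure D3:**
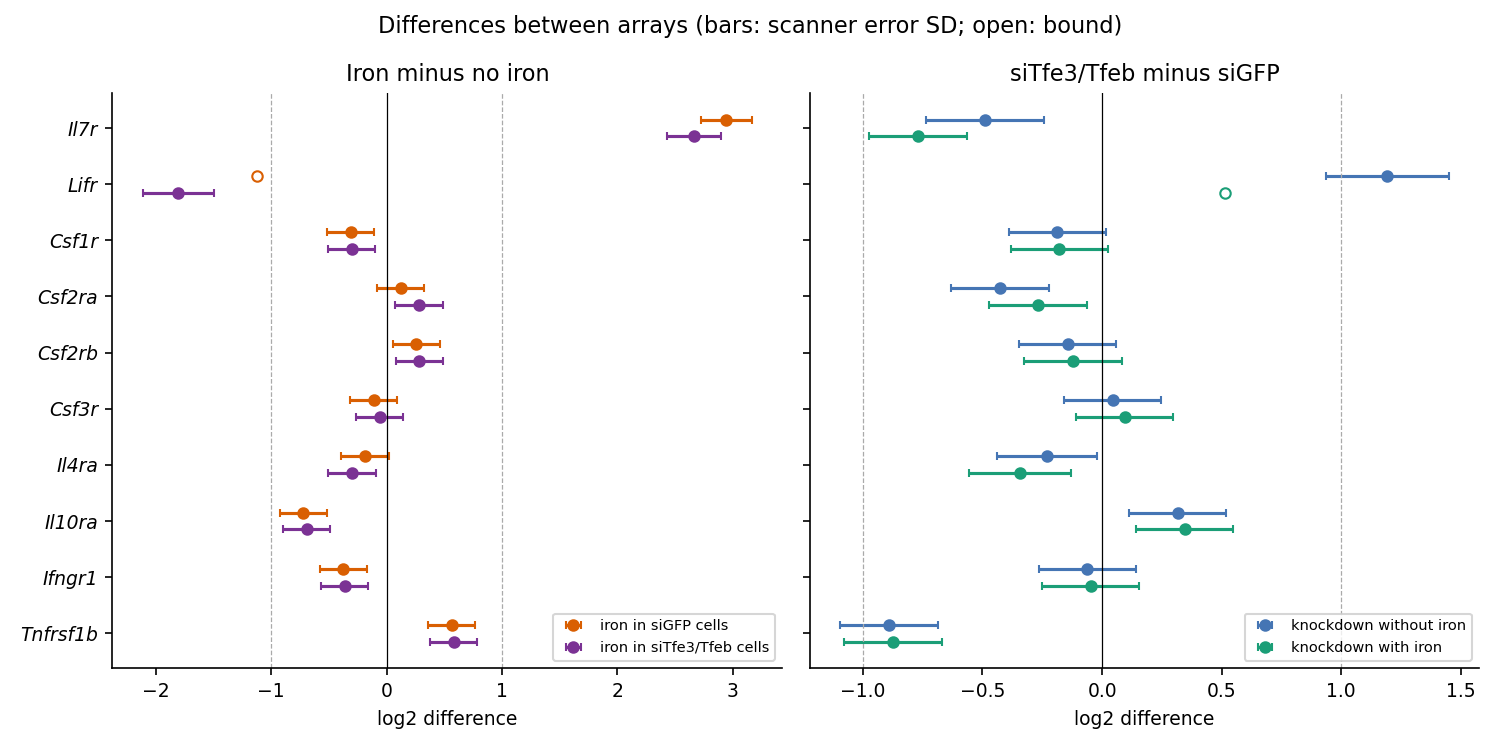
Log2 differences of the 10 receptors for iron in each siRNA group and for knockdown without and with iron; bars are the scanner error SD of a difference, open marks are bounds, and dashed lines mark 2-fold. Il7r and Lifr lie beyond the lines for iron and Tnfrsf1b falls just inside them for knockdown.

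The iron comparison was made on 2 pairs of arrays that share none, which allows the 2 values of each receptor to be set against each other. All 10 receptors had the same sign of iron difference in both siRNA groups, where 72.0% of the 13816 genes measured on all arrays did. For the 9 receptors measured on all 4 arrays, the difference between the 2 iron responses was within 1 scanner error SD in 9 and within 1 spot SD in 8. The exception to the latter was Csf2ra, whose iron response was 0.16 higher in siTfe3/Tfeb cells, with a spot SD of 0.09. That of Il7r was 0.28 lower in siTfe3/Tfeb cells, with a spot SD of 0.30. The scanner error SD of such a difference over 4 arrays was 0.29 for Csf1r and 0.32 for Il7r. The share of all genes within these limits was not computed, so the counts only describe the receptors. The median size of the difference between the 2 iron responses was 0.030 over the 9 receptors and 0.14 over all genes, both below that scanner error. This closeness depended on the scaling: with arrays centred on their medians the sizes were 0.094 and 0.15, and 5 of the 9 lay within 1 spot SD, since Csf2rb, Csf3r and Il10ra joined Csf2ra beyond it. Under normexp 7 of 9 lay within 1 spot SD and 8 within 1 scanner error SD, with Il7r beyond both. The Pearson r between the 2 iron responses was 0.997 over the 9 receptors, 0.985 without Il7r, and 0.678 over all genes. These are descriptions across genes, which share the arrays and are not independent replicates. Csf1r, Csf2ra, Csf2rb, Csf3r, Il10ra and Ifngr1 had mean log2 levels above 2, where spot error was smallest. The figures over all genes include dimmer ones, and genes of like brightness were not compared. For knockdown, also made on pairs that share no array, all 10 receptors had the same sign without and with iron, as 77.7% of all genes did, except that the sign of Ifngr1 with iron depended on the scaling. Each iron comparison shares an array with each knockdown comparison, so iron and knockdown values are given side by side and were not set against each other.

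**Figure D4:**
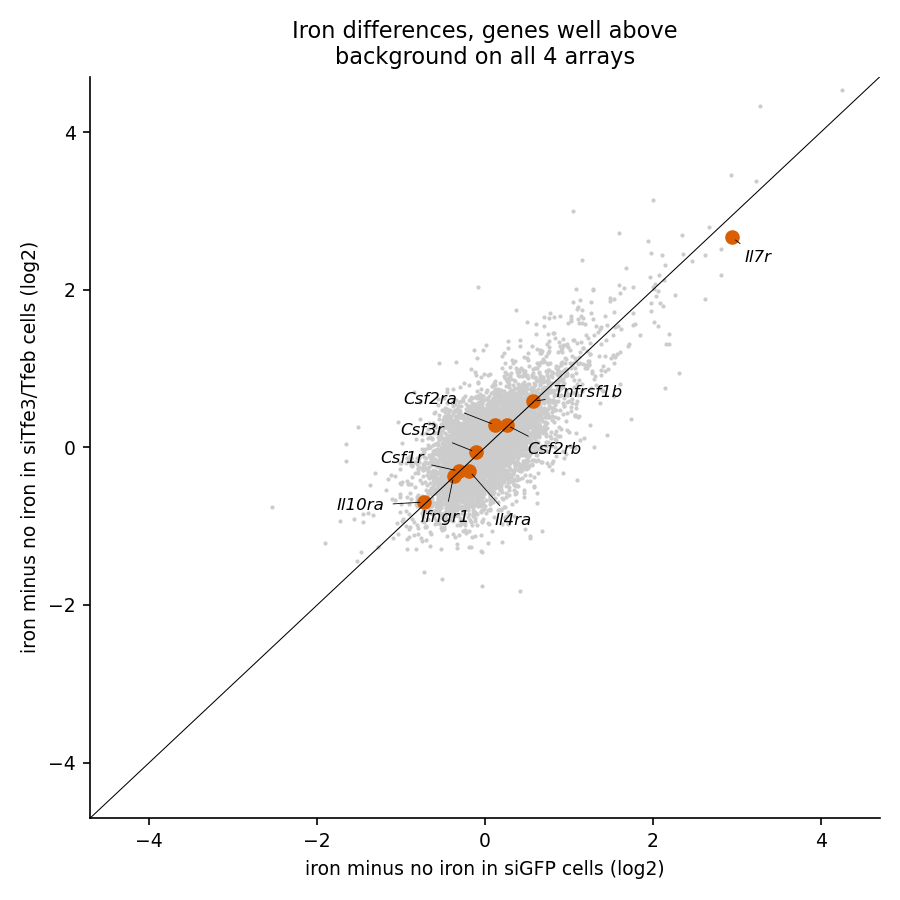
Log2 iron difference in siTfe3/Tfeb cells against that in siGFP cells for the 9 receptors (labelled) and all genes measured on all 4 arrays (grey); the line marks equal differences. The receptors lie close to the line, with Il7r at 2.94 and 2.66 in log2. Lifr, below background on 1 array, is not drawn.

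The lists here and below were chosen with earlier results of these data known. Over all genes, 1.88% to 3.56% differed by at least 2-fold in a comparison. The partner chains stayed inside that limit. All 9 were measured on every array and 0 reached 2-fold in any comparison, with medians of -0.02 and 0.10 for iron and -0.23 and -0.17 for knockdown. Il2rg, the common gamma chain that pairs with Il7r, read 9830, 9157, 8356 and 8509. Its iron differences were -0.12 and 0.13, so it did not share the Il7r pattern. Crlf2, which joins Il7r in the receptor for TSLP, stood at 9813, 9125, 8712 and 7565. Il6st, the gp130 chain that pairs with Lifr, read 370, 551, 549 and 618. Its iron differences of 0.56 and 0.27 had the opposite sign to those of Lifr. Csf2rb2, the copy of the common beta chain that serves IL-3, read 1689, 2497, 1248 and 1686, with iron differences of 0.55 and 0.54 and knockdown differences of -0.48 and -0.49. Il3ra, the IL-3 binding chain, was dim at 31 to 40. Il10rb, the second chain of the IL-10 receptor, read 3352, 4353, 3760 and 3445, with iron differences of 0.36 and -0.02. Ifngr2, which completes the interferon gamma receptor, read 3469, 3684, 2822 and 2818. Il13ra1, which pairs with Il4ra, read 2646, 2639, 3413 and 3192. Tnfrsf1a, the other TNF receptor, read 6955, 6304, 6102 and 5281, and its knockdown differences were -0.23 and -0.17.

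The ligands of these receptors were taken as a list of 18 genes, of which 8 were measured on all arrays, and 10, Il7, Il10, Ifng and Lif among them, were not well above background on any. With iron, 2 of the 8 passed 2-fold upwards under the control siRNA and 4 under the knockdown, and 0 passed it downwards. Over all genes, 1.53% and 1.78% passed it upwards and 0.352% and 0.700% downwards. Csf1, the ligand of Csf1r, read 179, 595, 101 and 234. Both cultures with iron lay above both without, with log2 differences of 1.72 and 1.32. The receptor Csf1r itself was lower with iron, by under 2 scanner error SD on its brightest probe. Osm, which signals through gp130, a partner chain and not 1 of the 10 receptors, read 677, 1988, 588 and 1146. Its iron differences were 1.54 and 1.07. Osmr, the oncostatin M receptor chain, was not well above background on any array. Csf2, the GM-CSF gene, read 183, 349, 118 and 232, with iron differences of 0.92 and 1.08. Tnf, the ligand of Tnfrsf1b, read 3907, 5275, 904 and 2055. Its knockdown differences were -2.15 and -1.28 and its iron differences 0.42 and 1.29, so Tnf and Tnfrsf1b were both lower in the knockdown cultures. Lta, lymphotoxin alpha and the other ligand of Tnfrsf1b, was dim at 38, 59, 66 and 38 and ran otherwise. Its iron differences were 0.61 and -0.71 and its knockdown differences 0.74 and -0.58, and it is named here after its values were seen. With knockdown, 1 of the 8 was 2-fold lower without iron, Tnf, and 2 with iron, Tnf and Csf1, the latter at -1.26. Over all genes, 2.10% were 2-fold lower with knockdown without iron and 1.76% with iron. The list's median difference was 0.51 and 0.69 for iron and -0.32 and -0.54 for knockdown, and kept its sign under the other scalings and background corrections tried. In siTfe3/Tfeb cells the 2-fold calls of Csf1, Csf2 and Osm with iron were lost in at least 1 of these settings. The lowest values were 0.93, 0.80 and 0.9996, the last only just under the limit.

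Among 32 other cytokine and growth factor receptors, between 20 and 22 were measured on both arrays of a comparison. Over all genes, iron gave 1.53% 2-fold higher and 0.352% lower in siGFP cells, and 1.78% and 0.700% in siTfe3/Tfeb cells. With iron 1 of these receptors was 2-fold higher in each siRNA group and 0 lower. These were Il1r2, the decoy receptor for IL-1, at 1.30 under the control siRNA and 0.87 under the knockdown, and Il20rb, a chain of the IL-20 receptor, at 0.55 and 1.28. Both calls were lost in at least 1 other setting, at lowest values of 0.59 for Il1r2 and 0.86 for Il20rb. Il1r2 is named here after its value was seen. With knockdown, 3 were 2-fold lower without iron and 2 with iron, where 2.10% and 1.76% of all genes were. Il20rb read 339, 504, 72 and 163, with knockdown differences of -2.28 and -1.55. Il1rl1, the receptor for IL-33, read 3279, 3694, 1138 and 1457, with -1.56 and -1.26. Il21r, the IL-21 receptor, read 763, 511, 269 and 299, with -1.54 and -0.69. Epor, the erythropoietin receptor, was the exception in the other direction at 147, 121, 192 and 306, with knockdown differences of 0.35 and 1.42. With knockdown in the presence of iron, 0.980% of all genes were at least 2-fold higher.

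Downstream of the receptors, 10 of 11 JAK kinases and STAT factors were measured and 0 differed 2-fold in any comparison. Over all genes, 1.88% to 3.56% did in a comparison. All 16 feedback inhibitors were measured. Cish, a STAT5 target that restrains these receptors, was the only one 2-fold higher with iron, at 635, 1886, 774 and 1596, or 1.55 and 1.15. Socs2, a related inhibitor, read 42, 76, 24 and 30 and was 2-fold lower with knockdown in the presence of iron, at -1.27, which was -0.52 at the smallest under the other settings. Knockdown without iron gave 2.10% of all genes at least 2-fold lower and 1.46% higher. Among 22 target genes of the pathways, 5 of 17 measured were 2-fold lower with knockdown without iron and 0 higher. These were Cxcl10, an interferon-induced chemokine, at -1.98, Traf1, an adaptor of TNF receptors, at -1.32, Gbp2, an interferon-induced GTPase, at -1.26, Bcl2l1, a survival factor, at -1.24, and Ccnd1, a cyclin, at 49.9% of its control. With knockdown in the presence of iron 1 of 16 was lower, Gbp2 at -1.18, against 1.76% of all genes. Both Gbp2 calls were lost in at least 1 other setting, at -0.78 and -0.70 at the smallest, and that of Ccnd1 at -0.90. With iron 1 target was 2-fold higher in each siRNA group, Myc in siGFP cells at 1.14 and Bcl2l1 in siTfe3/Tfeb cells at 1.24, and the Myc call was lost at a lowest value of 0.42. Ccnd1 and Myc are named after their values were seen. Of the 10 transcription factors of macrophage receptor genes, Klf4 was 2-fold higher with knockdown without iron, at 1.22, and Irf4 was 2-fold lower with knockdown in the presence of iron, at -1.08, a call lost at -0.69 under other settings. Adam10 and Adam17, proteases that shed receptors from the cell surface, had 0 calls, and the knockdown difference of Adam17 was -0.62 without iron and -0.06 with it.

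**Figure D5:**
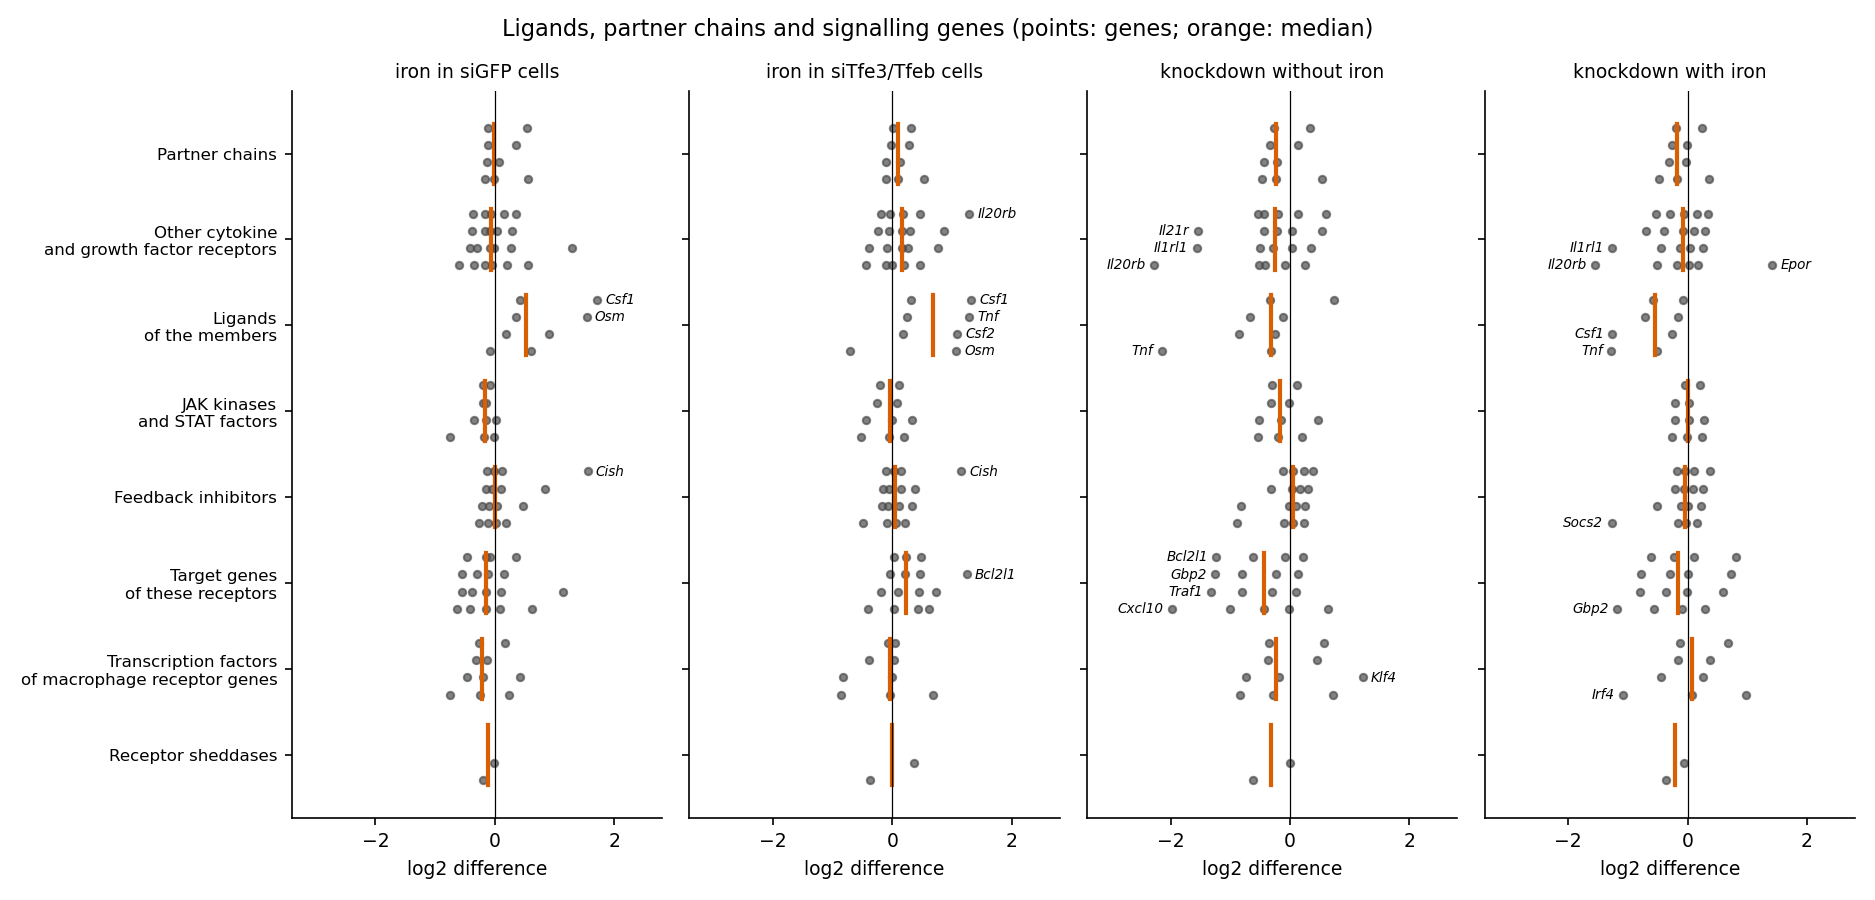
Log2 differences of the listed genes measured on both arrays of each comparison, 1 row per list and 1 panel per comparison; points are genes, orange bars are list medians and named points are those chosen by the naming rule. The ligands stand to the right of 0 for iron and to the left for knockdown, except for Lta, with iron in the knockdown cells and with knockdown in the absence of iron, and Il13, just below 0 with iron in the control cells. The partner chains lie between the 2-fold limits in every panel.

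For each receptor with a range of at least 1 in log2 over the 4 arrays and measured on all of them, the 3 genes with the nearest profile were taken from 12482 genes, by the Euclidean distance of their centred log2 levels over the 4 arrays. The profile nearest to Il7r was that of Hbegf, a ligand of the EGF receptor, at a distance of 0.60, followed by Pgm5 at 0.66 and Fabp4, a fatty acid binding protein, at 0.68. The log2 level of Hbegf was -3.68 and -4.48 in the cultures without iron, control and knockdown, and -0.88 and -2.30 in those with it. Those nearest to Il10ra were Mdm1 at 0.11, Zfp629 at 0.11 and Cytip at 0.12. Those nearest to Tnfrsf1b were Cx3cl1, the chemokine fractalkine, at 0.06, Ank at 0.09 and Coq10b at 0.09. With 4 arrays many genes can lie this close, so the distances are descriptions.

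The RefSeq promoter table, build GRCm38.p6, matched 7 of the 10 receptors with 8 windows, each from 250 bases before a start site to 50 after it. Of 4 motifs searched on both strands, CACGTG, the palindromic E-box, was in 0 of the 8 windows and in 7.15% of all 32851 windows. TCACGTG, which contains it and is the form described for Tfe3 and Tfeb, was in 0 of 8 and 3.77% of all. TGACNNNGC, the core of the antioxidant response element, was in 2 of 8 and 12.4% of all. TTCNNNGAA, the spacing bound by STAT factors, was in 2 of 8 and 8.30% of all. A match is a description of letters in these windows and says nothing about binding. The 250 bases upstream of the starts of Il7r, Lifr and Tnfrsf1b are printed because these genes differed most with iron or knockdown, with motif matches in capitals. In Il7r, at chr15:9529877-9530126 on the minus strand, TTCAGGGAA begins at -142. Lifr has starts on the plus strand after chr15:7129322-7129571, where TGACCTTGC begins at -247, and after chr15:7140292-7140541, with 0 matches. In Tnfrsf1b, at chr4:145246871-145247120 on the minus strand, TTCCCGGAA begins at -181. The other match was TGACCGTGC at -60 of Il4ra.
Il7r: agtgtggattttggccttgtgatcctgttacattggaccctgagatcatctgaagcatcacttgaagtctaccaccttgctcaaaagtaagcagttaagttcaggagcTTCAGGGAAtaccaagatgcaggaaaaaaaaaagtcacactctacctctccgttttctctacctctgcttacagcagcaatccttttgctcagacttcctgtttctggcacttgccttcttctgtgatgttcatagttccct
Lifr start 1: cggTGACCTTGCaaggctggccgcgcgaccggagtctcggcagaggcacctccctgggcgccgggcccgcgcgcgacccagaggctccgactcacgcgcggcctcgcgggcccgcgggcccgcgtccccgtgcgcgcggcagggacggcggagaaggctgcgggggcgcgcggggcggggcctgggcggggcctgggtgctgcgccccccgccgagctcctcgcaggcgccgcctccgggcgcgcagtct
Lifr start 2: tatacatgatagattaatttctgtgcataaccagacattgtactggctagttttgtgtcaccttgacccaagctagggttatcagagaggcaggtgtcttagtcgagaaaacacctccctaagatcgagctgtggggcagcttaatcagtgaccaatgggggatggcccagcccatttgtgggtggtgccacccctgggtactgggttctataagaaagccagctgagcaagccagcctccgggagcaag
Tnfrsf1b: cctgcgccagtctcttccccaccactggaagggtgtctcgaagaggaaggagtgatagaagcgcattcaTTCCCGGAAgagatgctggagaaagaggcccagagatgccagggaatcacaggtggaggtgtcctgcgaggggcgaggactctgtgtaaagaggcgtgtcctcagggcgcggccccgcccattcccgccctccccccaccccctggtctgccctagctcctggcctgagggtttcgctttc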

How the data were processed

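Per the labels, 50 ng of total RNA from each RAW264 culture was labelled with Cy3 for a one-colour Agilent mouse array. Spots were quantified with Agilent Feature Extraction 12.0.3.1, per the submitters' processing notes. The deposited scanner files give the processed signal, an intensity that per the file headers is background-subtracted within the array, with its error, and flags for signal well above background. The authors' deposited log2 table was used as an alternative: for iron in siGFP cells its differences followed those from the scanner with slope 0.995 and Pearson r 0.998, which gives its scale and direction. Its column medians were -0.0042, 0.022, -0.087 and 0.0013, and the median over the arrays was within 0.001 of 0 for 100% of probes.

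Signals of non-control spots were divided by the 75th percentile of the array, taken to log2 and averaged per probe. Array names were matched to RefSeq symbols (24765 of 36870 names), and the brightest probe represented a gene. A gene below background on 1 of 2 arrays was given as a bound against the lowest level flagged as well above background. Groups were taken from the labels, with 1 array each on 1 slide. A 2-fold difference was called, and no test was made. The calling step was tested on simulated data. Alternatives were median centring, quantile normalization, normexp (offset 50), both together, the deposited log2 table, the mean over probes and no background filter. Python 3.11.15, pandas 2.3.3, R 4.3.3 and limma 3.58.1 were used.

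The text names all receptors of the set, Tfe3 and Tfeb, the partner chains, up to 4 genes with 2-fold differences per list by size, and the 3 genes of nearest profile. The receptors and all gene lists were chosen with earlier results of these data known. Lists covered partner chains, ligands, other receptors, JAK and STAT genes, feedback inhibitors, target genes, transcription factors, sheddases and cell type markers. Of the markers, B cell genes were measured on all arrays for 3 of 5, granulocyte 2 of 5, dendritic cell 2 of 4, fibroblast 1 of 4, endothelial 1 of 3 and epithelial 0 of 3, with summed scaled signals of at most 0.283, 0.970, 0.178, 0.181, 0.184 and 0.0388. Probe positions are mm9, from the array design, and promoters are GRCm38.p6.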

Additional observations from a re-analysis of the deposited data

Results flagged for a closer look

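The genes named in the text and listed below, none of them among the 10 receptors, had iron differences of opposite sign in siGFP and siTfe3/Tfeb cells, each beyond the spot SD. With 1 array per group the difference was not tested. Epor, the erythropoietin receptor, had a log2 iron difference of -0.30 under the control siRNA and 0.77 under the knockdown, a difference of 1.07 between the 2 responses. For Cxcl10 the iron responses differed by 1.19, for Il21r by 0.85 and for Traf1 by 0.77. Those of Il2rg, the partner chain of Il7r, differed by 0.25. Both iron differences of Il2rg, -0.12 and 0.13, lay inside the scanner error SD of about 0.20 for bright probes. Those of Ccnd1 differed by 0.78 and those of Adam17 by 0.57. In siGFP cells Ccnd1, at -0.16, was inside that scanner error and Adam17, at -0.20, about equal to it. In these 7 genes the siTfe3/Tfeb response was the higher. For Lta it was the lower, at -0.71 against 0.61, a difference of -1.32. Over all 89 genes of the pathway lists measured on the 4 arrays, 15 had opposite iron differences of this kind, with the siTfe3/Tfeb response higher in 14 and lower in 1. The share of all genes passing this rule was not computed. Regardless of spot SD, 72.0% of the 13816 genes measured on all arrays had the same sign in both siRNA groups. The lists were chosen with earlier results of these data known, so the counts only describe them. None of the 9 receptors of the set that were measured on all arrays differed in sign.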

How the results depend on the processing

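Of 291 values of the receptors recomputed under alternatives, 243 moved by less than their spot SD, 48 moved by more, and 0 of those that started at 2-fold or more changed sign. In 7 of 49 receptor results the sign changed in some setting, all of them small: the knockdown difference of Ifngr1 with iron, which lay between -0.07 and 0.05, and 6 differences between iron responses. The count of receptors at least 2-fold different was 2 with iron in siGFP cells, 2 in siTfe3/Tfeb cells and 1 with knockdown without iron. Under normexp, with or without quantile normalization, these were 1, 1 and 0, since Lifr left the calls. With iron in siGFP cells the count was also 1 from the deposited log2 table and from the mean over probes. In the deposited table no bound could be formed, so Lifr had no value there. From the mean over probes the Lifr bound was -0.24. Il7r stayed past 2-fold for iron in every setting, lowest for the mean over probes at 1.49 and 1.41, which includes a probe below background.

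Over all genes, the calls were 283 and 372 for iron in siGFP and siTfe3/Tfeb cells and 541 and 408 for knockdown without and with iron. Under normexp they were 145, 168, 233 and 148, and with quantile normalization added 147, 167, 224 and 145. With no background filter they were 1563, 1856, 1974 and 1983. The share of calls that were higher moved from 71.8% to 89.9% under normexp, 88.6% with quantile normalization added and 31.1% with no filter for iron in siTfe3/Tfeb cells. It moved from 81.3% to 57.0% with no filter for iron in siGFP cells. For knockdown with iron it moved from 35.8% to 48.8% under median centring and to 22.7% with no filter. The causes were not tested. Of 32 differences at or beyond 2-fold in genes chosen by the naming rule, 21 stayed there under all scalings and corrections and 0 changed sign. Not among the 32 are the calls of Il1r2 and Myc with iron in siGFP cells and of Ccnd1 with knockdown without iron. These genes were named after their values were seen, and their calls were lost, at 0.59, 0.42 and -0.90 at the smallest.

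No paired analysis was possible because each group holds 1 array. The number of arrays limits precision: spot and scanner errors leave out the variation between cultures. Low signal limits Lifr most, with 1 of its 4 values below background, and Il7r without iron.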
